A study of Mus musculus with 6 samples.

Results

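The 9 genes described here encode proteins that start, brake or localise blood clotting and the activation of plasminogen. They are the plasminogen activators Plau and Plat, the urokinase receptor Plaur, the protease inhibitors Serpine2 and Serpinb2, the clotting initiator F3, its inhibitor Tfpi, and the protein C pathway receptors Thbd and Procr. They were taken by gene symbol from a table of 18476 genes, and all 9 were found and passed the filter on low counts.

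RNA was sequenced from femoral arteries of C57BL/6 wild-type mice at day 3 after wire injury. For 3 libraries saline had been applied around the vessel (the saline libraries) and for 3 vasostatin-2, a fragment of the secretory protein chromogranin A. All 6 libraries were from injured arteries of 1 genotype, and uninjured arteries were not analysed here. The age and sex of the mice, the dose and whether arteries were pooled are not given in the sources used here.

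In an injured vessel, F3 (tissue factor) on cells outside the bloodstream binds factor VII and starts the cascade that makes thrombin, and Tfpi blocks that first step. Thbd on endothelium binds thrombin and, with Procr, the endothelial protein C receptor, turns it toward making activated protein C, an anticoagulant. Plau and Plat cut plasminogen to plasmin, which dissolves fibrin and lets cells move through matrix, and serpins trap these proteases.

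By its label the cell type is vascular smooth muscle, while the protocol describes RNA of the whole artery. All 7 smooth muscle markers looked at were detected in every library, as were all 8 endothelial, all 7 fibroblast and all 7 monocyte and macrophage markers. In such bulk RNA, fewer cells of a type and less RNA per cell cannot be told apart. Library totals lay between 19333730 and 20105995 estimated counts. Saline replicate 2 stood apart by red cell and liver transcripts, vasostatin-2 replicate 3 by skeletal muscle markers (918 CPM, the count scaled to library size, summed over 6 genes, against 50.3 to 86.5 CPM in the others) and saline replicate 3 by Schwann cell markers (575 CPM against 52.1 to 86.1 CPM). Whether the libraries' makeup had a part in the differences below was not tested. Values given without a library show only how far a difference depends on that library.

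The 9 genes ranged over about an order of magnitude in level. TPM, a level scaled to transcript length and to the library's total, averaged over the 6 libraries was highest for F3, at 133 ± 44.5 (SD, n = 6). Plau followed at 101 ± 8.30, Procr at 97.5 ± 18.0, Plat at 88.4 ± 25.6, Serpine2 at 77.0 ± 10.6 and Plaur at 70.6 ± 9.23 TPM. Thbd was at 49.5 ± 9.08, Tfpi at 37.4 ± 3.20 and Serpinb2 at 11.2 ± 12.2 TPM. From F3 down to Plaur, neighbours in this order overlapped: F3 lay above Plau in 4 of 6 libraries, Plau above Procr in 3 and Serpine2 above Plaur in 5. Plaur lay above Thbd, Thbd above Tfpi and Tfpi above Serpinb2 in all 6 libraries.

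**Figure D1:**
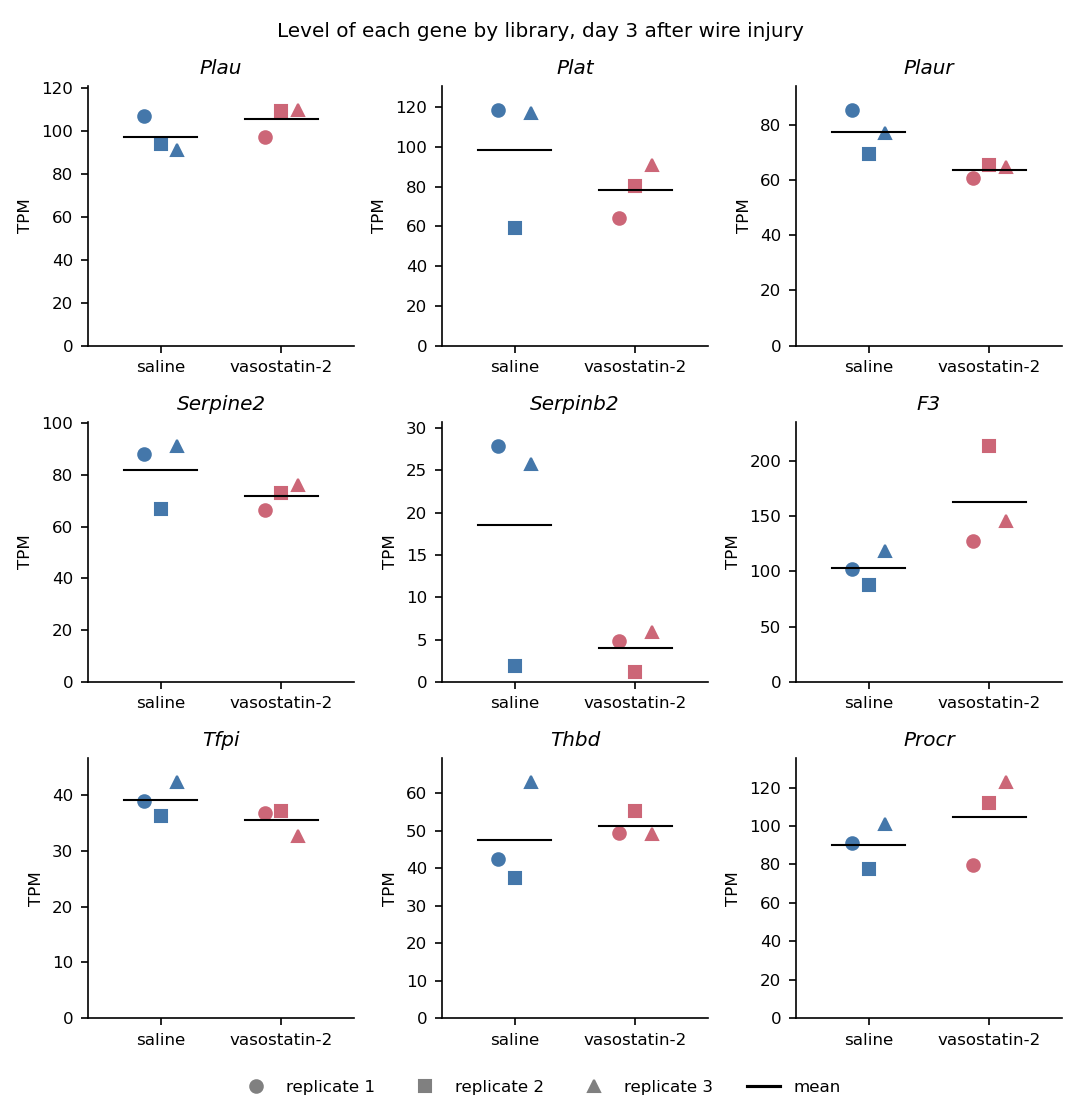
TPM of each of the 9 genes (vertical axis, from 0) in the 3 saline and 3 vasostatin-2 libraries, with the marker shape giving the replicate number and the bar the group mean. The groups do not overlap for F3 (saline 87.3 to 119, vasostatin-2 128 to 214) and Plaur (saline 69.6 to 85.6, vasostatin-2 60.65 to 65.7), and 2 saline libraries of Serpinb2 lie far above the other 4 libraries.

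No gene of the set passed the test of vasostatin-2 against saline. With p-values adjusted over all 14557 genes tested, edgeR's quasi-likelihood fit called 0 of them at an adjusted p of 0.05 (0%), so also 0 of the 9. At an unadjusted p of 0.05 it gave 1040 genes, 2 of them among the 9, F3 higher and Plaur lower with vasostatin-2, beside 7.14% of all genes tested (3.29% higher and 3.85% lower). DESeq2 called 0 of the 9 and 0.776% of all genes (113) at an adjusted p of 0.05. The same 2 genes had no overlap between groups, as had 12.8% of all genes (6.07% higher and 6.72% lower). The median log2 fold change of the 9 was −0.14, against −0.00068 over all genes tested, with 5 of the 9 below 0 beside 50.2% of all genes.

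F3 was the most abundant of the 9 and higher with vasostatin-2. It lies on chromosome 3 from 121723537 to 121735052, on the plus strand (GRCm38.p6, as for all positions here). Its level was 102, 87.3 and 119 TPM in saline replicates 1, 2 and 3, and 128, 214 and 146 TPM in vasostatin-2 replicates 1, 2 and 3. Every vasostatin-2 library was above every saline library, and vasostatin-2 replicate 2 was highest by a wide margin. The group means were 103 ± 15.6 and 162 ± 45.2 TPM (SD, n = 3 each). On the CPM scale of the fit the log2 fold change was 0.67 (SE 0.20, 95% interval 0.20 to 1.15), a 1.59-fold higher level (edgeR, unadjusted p = 0.0122, adjusted p = 0.601). DESeq2 gave an adjusted p of 0.106 for the same gene, and the authors' deposited table a q of 0.128. Without vasostatin-2 replicate 2 the log2 fold change was 0.43, and with the other libraries left out 1 at a time it lay between 0.60 and 0.82.

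The 250 bases before the start of F3 are printed because the promoter of this gene is known for paired AP-1 elements. They run from chr3:121723287-121723536 on the plus strand (RefSeq, GRCm38.p6), with capitals at each match to TGANTCA (AP-1) and GGGCGG (GC box), searched on both strands. TATAAA was searched too and had no match in this window.
F3: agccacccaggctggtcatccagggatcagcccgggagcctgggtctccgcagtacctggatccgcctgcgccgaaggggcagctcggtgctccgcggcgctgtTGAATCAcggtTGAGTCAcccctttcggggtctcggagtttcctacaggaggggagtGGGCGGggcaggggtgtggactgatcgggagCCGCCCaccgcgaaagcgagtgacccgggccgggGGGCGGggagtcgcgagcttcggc
The AP-1 matches begin 146 and 135 bases before the start, so that 4 bases lie between them. A TGANTCA match is present in 6.75% of 32851 promoter windows of the same length, GGGCGG in 32.7% and TATAAA in 12.4%.

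Tfpi, the Kunitz-type inhibitor of the F3 and factor VII complex, had the smallest SD of log2 CPM of the 9 over the 6 libraries, at 0.11. It lies on chromosome 2 from 84432855 to 84476775 on the minus strand. Its level was 38.9, 36.4 and 42.4 TPM with saline and 36.8, 37.2 and 32.7 TPM with vasostatin-2, so the groups overlapped. The fitted log2 fold change was −0.14 (SE 0.08, 95% interval −0.33 to 0.06; edgeR, unadjusted p = 0.137, adjusted p = 0.763). It was −0.08 without saline replicate 3 and −0.04 without both replicates 3. The interval for all 6 libraries leaves out a change as large as that fitted for F3. The ratio of F3 to Tfpi in TPM was 2.62, 2.40 and 2.80 with saline and 3.48, 5.74 and 4.46 with vasostatin-2.

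Thbd and Procr, the endothelial receptors through which thrombin activates protein C, overlapped between the groups. Thbd lies on chromosome 2 from 148404471 to 148408188 (minus strand) and Procr on the same chromosome from 155751125 to 155755478 (plus strand). Thbd was at 42.6, 37.4 and 63.1 TPM with saline and 49.5, 55.2 and 49.1 TPM with vasostatin-2, with saline replicate 3 the highest library of all. Its log2 fold change was 0.12 (95% interval −0.30 to 0.53; edgeR, adjusted p = 0.914). It was 0.35 without saline replicate 3 (unadjusted p = 0.00615 and adjusted p = 0.459 by edgeR) and 0.0021 without saline replicate 2.

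Procr was at 91.4, 77.9 and 101 TPM with saline and 79.6, 112 and 123 TPM with vasostatin-2. Of the vasostatin-2 libraries, replicate 1 lay among the low ones and replicates 2 and 3 above all saline libraries. Its log2 fold change was 0.23 (95% interval −0.18 to 0.64; edgeR, adjusted p = 0.816), 0.40 with vasostatin-2 replicate 1 left out and 0.09 with replicate 3 of that group left out. The ratio of Thbd to Procr overlapped between groups, from 0.466 to 0.624 with saline and from 0.399 to 0.622 with vasostatin-2. Beside these genes, the summed level of 8 endothelial markers was 1660 to 1996 CPM with saline and 1690 to 1935 CPM with vasostatin-2, with 5 of the 8 lower. Smooth muscle markers summed to 1455, 930 and 1818 CPM with saline and 919, 2177 and 2291 CPM with vasostatin-2, with 0 of 7 lower. As for Procr, vasostatin-2 replicates 2 and 3 were the highest libraries, and saline replicate 2 and vasostatin-2 replicate 1 the lowest. The part of smooth muscle content in the Procr values was not tested.

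Among the plasminogen activators, Plau, the urokinase that binds to cells through Plaur, was close in both groups. It lies on chromosome 14 from 20836662 to 20843388 (plus strand). Plau was at 107, 93.7 and 90.8 TPM with saline and 96.9, 109 and 109.7 TPM with vasostatin-2. The log2 fold change was 0.12 (SE 0.09, 95% interval −0.08 to 0.33; edgeR, unadjusted p = 0.205, adjusted p = 0.809), 0.06 without saline replicate 3 and 0.03 without both replicates 3.

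Plaur, which holds urokinase at the cell surface and is abundant on myeloid cells, was lower with vasostatin-2, with each library of that group below each saline library. It lies on chromosome 7 from 24460937 to 24475970 (plus strand). Its level was 85.6, 69.6 and 77.0 TPM with saline and 60.65, 65.7 and 64.75 TPM with vasostatin-2, which leaves a small gap between the lowest saline and the highest vasostatin-2 library. The group means were 77.4 ± 8.04 and 63.7 ± 2.67 TPM (SD, n = 3 each). In the fit the log2 fold change was −0.27 (SE 0.07, 95% interval −0.45 to −0.10), a 1.21-fold lower level (edgeR, unadjusted p = 0.00811, adjusted p = 0.579). It stayed between −0.31 and −0.22 when each library was left out in turn. In edgeR Plaur thus had the lowest unadjusted p of the 9 with a smaller difference than F3, Plat and Serpinb2. In DESeq2 the unadjusted p was lower for F3, at 0.00118 against 0.00613 for Plaur. The adjusted p of Plaur was 0.288 by DESeq2, and its q in the authors' deposited table was 0.352.

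Within each library the ratio of Plau to Plaur was 1.24, 1.35 and 1.18 with saline and 1.60, 1.66 and 1.69 with vasostatin-2. The ranges did not overlap. Of 6 ratios between genes of the set, this one and F3 to Tfpi had no overlap; each contains 1 of the 2 genes that separated the groups alone, so they are not further evidence. The summed level of 7 neutrophil markers was 349 to 571 CPM with saline and 192 to 426 CPM with vasostatin-2, with all 7 lower and Ly6g at 0 in at least 1 library. That of 7 monocyte and macrophage markers was 6255 to 9301 CPM and 7878 to 8440 CPM, with 1 of 7 lower. The part of these cells in the Plaur difference was not tested.

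The 250 bases before the start listed for Plaur in RefSeq's promoter entries, chr7:24462233-24462482 on the plus strand, are shown beside F3. Capitals are again at the motif matches. This listed start is internal: the window lies inside the gene span given above, which begins at 24460937, while that of F3 ends just before its span.
Plaur: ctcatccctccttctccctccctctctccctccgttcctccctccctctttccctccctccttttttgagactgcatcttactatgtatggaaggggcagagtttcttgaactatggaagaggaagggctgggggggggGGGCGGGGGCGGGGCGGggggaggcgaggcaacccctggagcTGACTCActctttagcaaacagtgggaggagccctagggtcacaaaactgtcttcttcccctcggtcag
The window holds 1 AP-1 match, beginning 69 bases before the listed start, and 3 GC boxes, of which the second and the last share bases. F3 and Plaur both hold TGANTCA, and the part of this motif in their levels was not tested. Of the 6 genes with a window, 4 hold TGANTCA in at least 1 window (F3, Plaur, Serpinb2 and Procr), beside 6.75% of all windows. As many, 4 of 6, hold GGGCGG (F3, Plaur, Serpine2 and Tfpi), beside 32.7% of all windows. TATAAA is held by 2 of 6, beside 12.4%. The shares are per window, while some of the 6 genes have more than 1 window. F3 is among the 4 genes with TGANTCA, and its promoter was known for AP-1 elements beforehand. That count is therefore not evidence about the set.

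**Figure D2:**
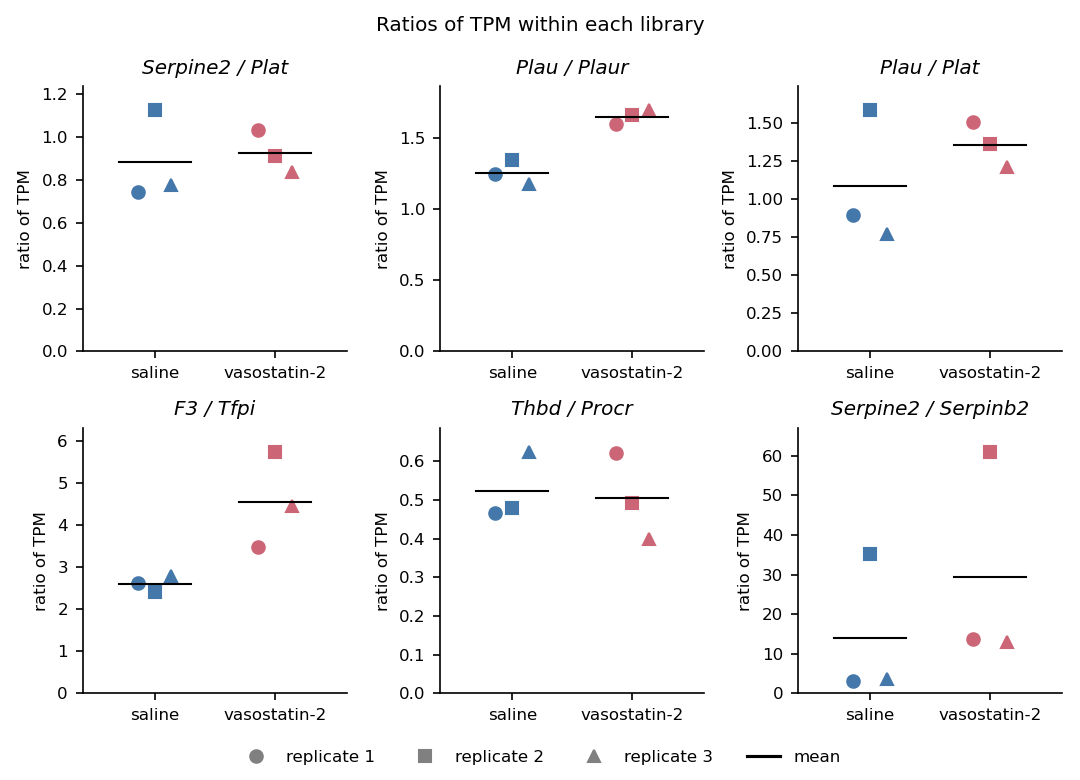
Ratio of the TPM of one gene to that of another within each library (vertical axis, from 0), with the marker shape giving the replicate number and the bar the group mean. Plau to Plaur and F3 to Tfpi are the ratios whose groups do not overlap, and in 3 of the other 4 saline replicate 2 lies away from the other saline libraries.

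Plat, tissue-type plasminogen activator, lies on chromosome 8 from 22757722 to 22782848 (plus strand) and varied most within saline among the abundant genes. It was at 119, 59.2 and 117 TPM with saline and 64.3, 80.1 and 90.8 TPM with vasostatin-2. Saline replicate 2 was the lowest of all 6 libraries, and the other 2 saline libraries were the highest. Its log2 fold change was −0.31 (SE 0.25, 95% interval −0.90 to 0.29; edgeR, unadjusted p = 0.262, adjusted p = 0.837). Without saline replicate 2 it was −0.54 (unadjusted p = 0.00767 and adjusted p = 0.293 by edgeR), and without saline replicate 1 it was −0.17.

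Serpine2, protease nexin-1, an inhibitor of thrombin, urokinase and tissue-type activator, followed a similar order. It lies on chromosome 1 from 79794317 to 79858665 (minus strand). Its level was 88.2, 66.6 and 91.3 TPM with saline and 66.4, 73.1 and 76.2 TPM with vasostatin-2. Saline replicate 2 lay among the vasostatin-2 libraries and the other 2 saline libraries above them. The log2 fold change was −0.18 (SE 0.11, 95% interval −0.43 to 0.07; edgeR, unadjusted p = 0.139, adjusted p = 0.764), and −0.27 without saline replicate 2 (unadjusted p = 0.0118 and adjusted p = 0.323 by edgeR).

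Serpinb2, plasminogen activator inhibitor type 2, a largely intracellular serpin that activated macrophages and other stimulated cells make, had the largest difference of the set and the largest spread. It lies on chromosome 1 from 107500892 to 107525600 (plus strand). Its level was 27.9, 1.89 and 25.8 TPM with saline and 4.79, 1.20 and 5.83 TPM with vasostatin-2. The 2 high libraries are saline replicates 1 and 3, while saline replicate 2 lay below 2 of the vasostatin-2 libraries, so the groups overlapped. The estimated counts behind these levels were 510, 37 and 482 with saline and 90, 23 and 110 with vasostatin-2, and the highest level was 23.3 times the lowest. Counting error alone, as a coefficient of variation, is 20.9% at the lowest count.

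The log2 fold change of Serpinb2 was −2.19 (SE 0.93, 95% interval −4.40 to 0.03), a 4.55-fold lower level (edgeR, unadjusted p = 0.0521, adjusted p = 0.705). Its size was exceeded by few genes, since 99.8% of all genes tested had a smaller one. The authors' deposited table gives a log2 fold change of −2.19 and a q of 0.853. Without saline replicate 2 the value was −2.72 (unadjusted p = 0.00427 and adjusted p = 0.282 by edgeR), and without saline replicate 1 it was −1.78. The saline libraries thus differed among themselves by more than the group means did. Neutrophil and macrophage markers are given above beside Plaur. Fibroblast markers summed to 12634 to 21853 CPM with saline and 14361 to 18052 CPM with vasostatin-2, with 2 of 7 lower.

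The window before the first of the RefSeq starts listed for Serpinb2, chr1:107511173-107511422 on the plus strand, is printed because this gene had the largest range over the libraries. As for Plaur, the listed start is internal, and the window lies inside the gene span given above, which begins at 107500892.
Serpinb2: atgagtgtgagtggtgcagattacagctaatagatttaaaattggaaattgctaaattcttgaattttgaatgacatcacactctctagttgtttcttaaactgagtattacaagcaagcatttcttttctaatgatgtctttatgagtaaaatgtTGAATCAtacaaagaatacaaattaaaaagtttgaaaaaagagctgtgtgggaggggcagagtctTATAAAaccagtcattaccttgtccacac
Capitals mark a TGANTCA match beginning 94 bases before the listed start and TATAAA beginning 29 bases before it. GGGCGG had no match here, in contrast to the windows of F3 and Plaur, which had 3 matches each.

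**Figure D3:**
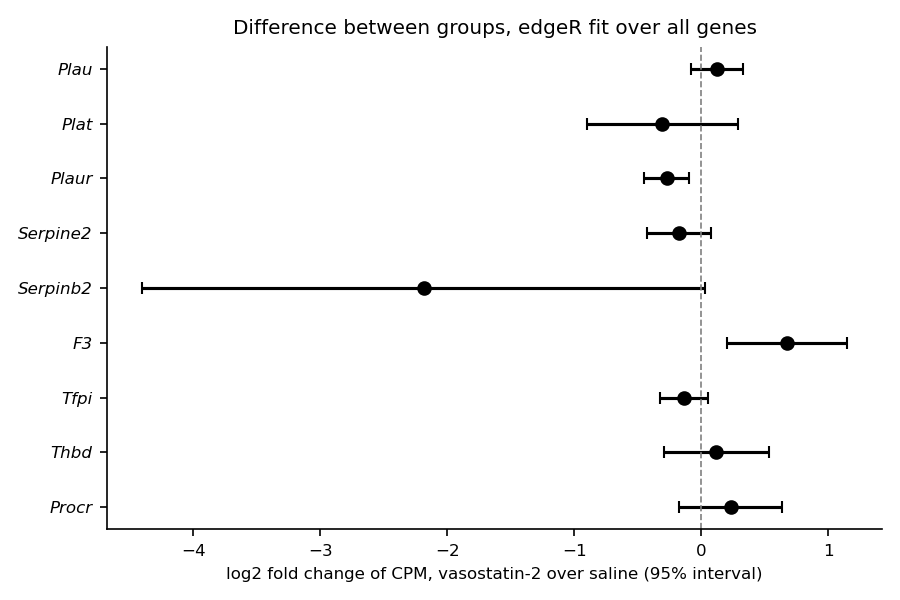
Log2 fold change of CPM, vasostatin-2 over saline (horizontal axis), for each of the 9 genes, with the 95% interval from the edgeR fit over all genes. The interval lies to one side of 0 for F3 (0.20 to 1.15) and Plaur (−0.45 to −0.10), and that of Serpinb2 is the widest (−4.40 to 0.03).

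Patterns over the 6 libraries were compared for the 3 genes that varied most, by the root mean square difference of centred log2 CPM from 11779 genes whose mean reached 5 CPM. Nearest to Serpinb2 were the chemokines Cxcl3, Cxcl5 and Cxcl13, at 0.79, 0.87 and 0.94, against an SD of 1.80 for Serpinb2 itself. Cxcl3, a neutrophil-attracting chemokine, was at 15.9, 4.91 and 11.96 CPM with saline and 2.55, 1.30 and 4.03 CPM with vasostatin-2. Like Serpinb2 it was highest in saline replicates 1 and 3, but its saline replicate 2 stayed above the vasostatin-2 libraries. Nearest to F3 were Gng7, Fbln7 and Ccl21d, at 0.13, 0.15 and 0.15 with an SD of 0.44 for F3. Nearest to Plat were Scara3, Filip1l and Dpysl3, at 0.08, 0.09 and 0.09 with an SD of 0.39 for Plat. With 6 libraries close matches arise readily among so many genes, and these names are a description.

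Other genes of the same systems were read from 4 lists holding 50 genes, of which 34 passed the low-count filter. No gene of them passed the adjusted test in edgeR, where 4 were lower and 1 higher at an unadjusted p of 0.05, beside 3.85% and 3.29% of all genes. Without saline replicate 2 these counts were 4 and 2, beside 11.2% of all genes in either direction, but of partly different genes. F5 and F2rl3 left the lower side there. F2rl1 and Mrc2, a receptor that binds Plaur and takes up collagen, entered it. Mrc2, named after its values were seen, had a log2 fold change of −0.21, and −0.39 without saline replicate 2 (edgeR, unadjusted p = 0.0358, adjusted p = 0.421). With all 6 libraries the median log2 fold change of the 34 genes was −0.03, with 18 of 34 below 0, beside 50.2% of all genes.

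Of 12 tested genes of the plasminogen system, 1 was lower and 1 higher at an unadjusted p of 0.05, beside 3.85% and 3.29% of all genes. Its most abundant genes were the plasminogen-binding annexin Anxa2, with log2 fold change −0.05, the C1 inhibitor Serping1, at −0.05, and S100a10, the partner of Anxa2, at 0.10. Eno1, a glycolytic enzyme that also binds plasminogen at the cell surface, was at 982 ± 74.5 TPM with saline and 752 ± 91.6 TPM with vasostatin-2 (log2 fold change −0.38; edgeR, adjusted p = 0.601). Vldlr, a receptor that takes up complexes of proteases and serpins, was at 4.66 ± 0.670 TPM with saline and 6.84 ± 0.957 TPM with vasostatin-2 (log2 fold change 0.56; edgeR, adjusted p = 0.548). Both had no overlap between groups, as had 12.8% of all genes.

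Of 11 tested coagulation and fibrin genes, 1 was lower at an unadjusted p of 0.05 (3.85% of all genes). That gene, F5, the cofactor of the enzyme that makes thrombin, was at 3.55 ± 0.271 TPM with saline and 2.48 ± 0.735 TPM with vasostatin-2 (log2 fold change −0.51; edgeR, adjusted p = 0.687). Without saline replicate 2 its unadjusted p by edgeR was 0.0683, so that the call was lost. The abundant Vkorc1, which recycles vitamin K, had a log2 fold change of 0.12, the fibrin-crosslinking F13a1 one of −0.06 and the platelet-binding Vwf one of 0.31. Of 7 tested anticoagulant genes, 3 had a log2 fold change below 0, and 1 was lower at an unadjusted p of 0.05 (3.85% of all genes). That gene was Nt5e, the ectoenzyme CD73 that makes adenosine. It was at 12.03, 10.2 and 11.8 TPM with saline and 7.26, 4.75 and 6.73 TPM with vasostatin-2. All its saline libraries were above all its vasostatin-2 libraries, as for 6.72% of all genes (log2 fold change −0.85; adjusted p = 0.458 by edgeR and 0.00287 by DESeq2). Of the 34 tested list genes DESeq2 called 1, Nt5e, at an adjusted p of 0.05, beside 0.776% of all genes. The abundant Anxa5, Pros1 and Entpd1 had log2 fold changes of 0.01, 0.06 and −0.05.

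Of the 4 receptors cut by thrombin or related proteases, 1 was lower at an unadjusted p of 0.05 (3.85% of all genes). That gene, F2rl3, was at 3.19 ± 0.834 TPM with saline and 1.98 ± 0.301 TPM with vasostatin-2 (log2 fold change −0.69; edgeR, adjusted p = 0.685). Without saline replicate 2 it was −0.53 (edgeR, unadjusted p = 0.131), so that this call was lost. It encodes the thrombin receptor PAR4, and mouse platelets carry it. The summed level of 6 platelet markers was also lower, at 273 to 372 CPM with saline and 203 to 241 CPM with vasostatin-2, with 4 of 6 lower. Their part in the F2rl3 difference was not tested. F2r had a log2 fold change of 0.21.

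F2rl1, the receptor PAR2 that factor VII and X with F3 can cut, was at 21.5, 5.58 and 23.3 TPM with saline and 9.20, 11.5 and 12.4 TPM with vasostatin-2. Saline replicate 2 was again the lowest library and the other 2 saline libraries the highest, the order seen for Plat. Its log2 fold change was −0.58 (edgeR, adjusted p = 0.832), and −0.98 without saline replicate 2 (edgeR, unadjusted p = 2.11e-04, adjusted p = 0.161).

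Saline replicate 2 also held transcripts of clotting proteins that the liver makes. Of the 50 list genes, 16 did not pass the low-count filter, among them prothrombin (F2), plasminogen (Plg) and the fibrinogen chains (Fga, Fgb and Fgg), named after their values were seen. In 15 of the 16 the highest library was saline replicate 2, and their summed estimated counts were 526 there and 18 to 38 in the other 5 libraries. Fga had 92 estimated counts in saline replicate 2 and 0 to 5 in the others. A list of 4 hepatocyte genes added after these values were seen (Alb, Apoa1, Ttr and Ahsg) summed to 137 CPM in saline replicate 2 and 4.34 to 7.63 CPM in the other 5 libraries. The red cell markers summed to 12335 CPM there, against 310 to 2496 CPM elsewhere. The source of these transcripts was not tested.

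F7, the protease partner of F3, and F10, its substrate, passed the filter and were named after their values were seen. F7 was at 8.87, 57.2 and 7.74 TPM with saline and 20.3, 25.4 and 20.5 TPM with vasostatin-2. The vasostatin-2 libraries thus lay between saline replicate 2 and the other 2 saline libraries. Its log2 fold change was −0.20 (edgeR, adjusted p = 0.972), and 1.46 without saline replicate 2 (edgeR, unadjusted p = 3.46e-05, adjusted p = 0.101), so the direction turned on 1 library. F10 was at 14.9, 41.6 and 10.8 TPM with saline and 12.8, 11.9 and 11.96 TPM with vasostatin-2, and its log2 fold change went from −0.89 to −0.0010 without saline replicate 2.

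**Figure D4:**
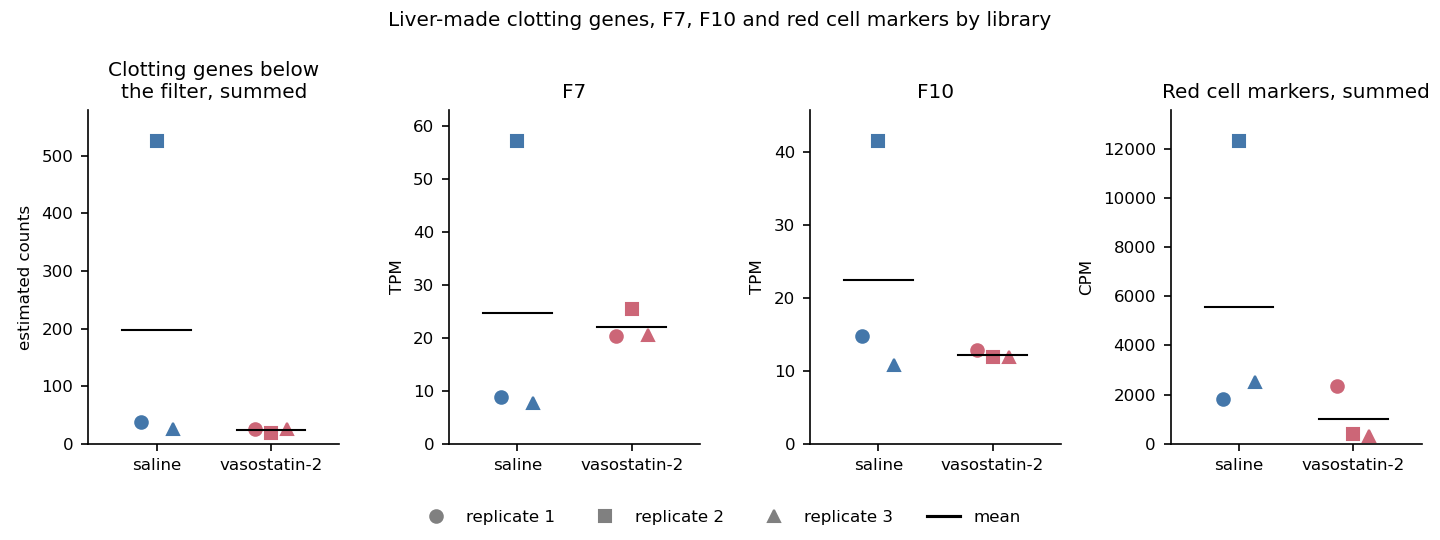
From left to right, summed estimated counts of the 16 list genes below the low-count filter, TPM of F7, TPM of F10 and summed CPM of 5 red cell markers, by library (vertical axes from 0), with the marker shape giving the replicate number and the bar the group mean. Saline replicate 2 is the highest library in all 4 panels, at 526 estimated counts, 57.2 TPM, 41.6 TPM and 12335 CPM.

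Without saline replicate 2, 5 of the 9 genes were at an unadjusted p under 0.05 in edgeR, beside 11.2% of all genes tested. These were Plaur, Plat, Serpine2 and Serpinb2, all lower with vasostatin-2, and F3, higher at a log2 fold change of 0.60. None of the 9 passed the adjusted test in that fit, where the lowest adjusted p among them was 0.282. With each other library left out in turn, 2 or 3 of the 9 were at an unadjusted p under 0.05 in edgeR, beside 3.36% to 7.57% of all genes. For Plat, Serpine2 and Serpinb2 the library left out was the lowest saline one, so their lower p without it is not further evidence.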

How the data were processed

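Per the submitters' processing notes, HISAT2 2.1.0, DESeq2 1.26.0 and the build GRCm38.p6 were used; the counting tool and strandedness are not given in the sources used here. The authors deposited 1 table with estimated counts, TPM and FPKM per gene and library, and their own DESeq2 log2 fold changes with p-values and q-values; FPKM was not used. Estimated counts were rounded, filtered with filterByExpr (14557 of 18476 genes kept), scaled by TMM (factors 0.985 to 1.01) and tested in edgeR 4.0.16 (R 4.3.3, robust quasi-likelihood, treatment as the only term), with Benjamini-Hochberg adjustment over all genes. Fold changes are of CPM, and 2 is the prior count of log2 CPM. As alternatives, DESeq2 1.42.0 and limma 3.58.1 were run, and the edgeR step was tested on simulated data. The submitters call the 3 libraries of each group biological replicates. The p-values set the difference between groups against the spread among these libraries, estimated with help from all genes tested. An exact test of 3 against 3 libraries cannot go below 0.1.

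Genes named outside the 9 were, per list, the 3 with the highest mean TPM and any at an unadjusted p under 0.05, and, for the 3 most variable of the 9, the 3 nearest genes by pattern; others are said to be chosen after their values were seen. The members and lists were chosen with earlier results of these data known. Some items of these systems are not reported here. Positions are those of the deposited table and equal RefSeq's for all 9 genes. In GENCODE M21 no other gene overlaps them. Promoter sequences are RefSeq's, GRCm38.p6, and 6 of the 9 genes matched an entry. Each window ends at a start listed there, which need not be the outer end of the gene's span.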

Additional observations from a re-analysis of the deposited data

How the results depend on the processing

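All 9 genes kept the direction of their log2 fold change under all 16 alternatives, and none passed the adjusted test in any of them. Over these, the log2 fold change lay between 0.43 and 0.84 for F3, −0.31 and −0.22 for Plaur, −2.72 and −1.66 for Serpinb2 and 0.0021 and 0.38 for Thbd. The number of genes called over the whole table was 0 with edgeR and 113 with DESeq2, and 0 to 2 with each library left out in turn; the cause of the DESeq2 difference was not tested. The number of the 9 at an unadjusted p under 0.05 was 2, and 2 to 5 with each library left out, beside 3.36% to 11.2% of all genes in those fits. It was 3 with DESeq2 (6.64% of all genes) and with limma-voom (10.6%). Without both replicates 3, an alternative chosen after seeing the data, it was 3 (4.92% of all genes), with Thbd (log2 fold change 0.38) beside F3 and Plaur. With the replicate number as a block edgeR called 0 genes, and 3 of the 9 were at an unadjusted p under 0.05 (6.11% of all genes), with Serpinb2 at 0.00247 (adjusted p = 0.554). Deviations of same-numbered libraries correlated at −0.119, 0.0251 and 0.0273, and no saline library correlated best with its own number. With 3 libraries per group, some of them apart in makeup, this cannot settle whether the numbers pair the libraries. Depth limits Serpinb2 most, with 23 estimated counts in its lowest library, while the other 8 genes had at least 576.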
